A study of Homo sapiens with 12 samples.

Results

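The genes described here encode the enzymes and core partners that remove the poly(A) tail, remove the cap and degrade the body of an mRNA. A total of 39 genes were chosen by symbol, and all 39 were found among the 26058 Ensembl genes of the HEK293 RPKM table. RPKM are reads scaled to the length of the exons and to the size of the library. They comprise 7 scaffold and regulatory subunits and 4 deadenylase subunits of the CCR4-NOT complex, 2 TOB adaptors, PAN2, PAN3 and PARN, 9 factors of decapping and 5′ to 3′ decay, 8 subunits of the exosome core, the 2 exosome ribonucleases DIS3 and EXOSC10, and 4 adaptors of the nuclear exosome. The rule that selects them uses gene names and no measured value, but it was set with earlier results of these data known.

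Cytoplasmic mRNA decay usually begins with shortening of the poly(A) tail, first by PAN2-PAN3 and then by CCR4-NOT, a complex built on the scaffold CNOT1. The shortened mRNA is decapped by DCP2 with its activators and degraded from the 5′ end by XRN1, or it is degraded from the 3′ end by the exosome, which in the nucleus is guided to its substrates by the helicase MTREX and its adaptors. Short-lived mRNAs of growth factor response genes are classic substrates of these pathways, and cordycepin, which is 3′-deoxyadenosine, is known as an inhibitor of polyadenylation.

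HEK293 is a human embryonic kidney line. RNA of wild-type HEK293 cells (WT) and of a derivative lacking both genes of the catalytic AMPK subunits, PRKAA1 and PRKAA2, after CRISPR editing (AMPK KO) was sequenced to ask whether the EGF response and its change by cordycepin need the energy-sensing kinase AMPK. All cells were starved of serum for 24 h. The 3 treatments of each line were DMSO alone (0.025% v/v), DMSO for 20 min and then EGF for 30 min (DMSO+EGF), and 25 µM cordycepin for 20 min and then EGF for 30 min (cordycepin+EGF). EGF was given at 15 nM according to the description of the series and at 15 µM according to the sample labels, and this difference was not resolved.

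There were 12 libraries in 6 groups of 2, numbered replicates 2 and 3. Replicate 1 was discarded by the authors as an outlier and was not analysed here. The study calls them biological replicates without saying whether they were separate cultures, and the p-values below measure the spread between these libraries. A single knockout derivative was compared with WT, so an effect of the lost kinase and any other difference between the lines cannot be told apart.

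Reads recovered from the RPKM values numbered 3806335 in WT DMSO replicate 3 and between 12016743 and 25104904 in the other 11 libraries. The correlation of log2 values between replicates was 0.918 in WT DMSO and 0.961 to 0.977 in the other groups. Of the HEK293 markers examined, VIM, KRT8, KRT18 and NEFL were present (from 7.998 RPKM, for KRT8, upwards in every library), while PAX2 (0.113 to 0.851 RPKM) and NEFM (0 to 0.342 RPKM) were near 0. The leukocyte marker PTPRC was at most 0.061 RPKM. Before EGF, PRKAA1 RNA averaged 18.7 ± 4.58 RPKM (SD, n = 2) in WT cells and 7.49 ± 0.173 RPKM in AMPK KO cells (log2 fold change -1.26, limma, adjusted p 0.0228). PRKAA2 RNA averaged 10.04 ± 2.94 and 5.84 ± 0.353 RPKM, respectively (log2 fold change -0.73, limma, adjusted p 0.112). Transcripts of both targeted genes were thus still detected in AMPK KO cells. EGR1, an immediate early gene, rose after EGF by 6.16 on the log2 scale in WT and by 5.28 in AMPK KO. In bulk RNA, fewer cells with a transcript and less of it in each cell cannot be told apart.

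All 39 decay genes were expressed above the level required for testing, a mean of 0.5 RPKM. Their mean levels ran from 1.65 RPKM for DCP1B, a paralogue of the decapping activator DCP1A, to 79.4 RPKM for CNOT1. The next highest were EXOSC10, a nuclear exosome ribonuclease, with 35.3 RPKM, CNOT9, a CCR4-NOT subunit that binds recruiting proteins, with 30.9 RPKM, and MTREX with 26.4 RPKM. Reads could be recovered as whole numbers for 37 of the 39 genes, not for CNOT4 and ZCCHC8, and the smallest number behind a value was 15 (DCP1B in WT DMSO replicate 3) and the largest 21068 (CNOT1). Values of DCP1B therefore carry the most counting error. The lengths that gave whole reads took in all annotated exons of a gene, for example 14103 bases for PARN and 3929 for CNOT8. Levels compared between genes, here and below, therefore depend on which exons are annotated.

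**Figure D1:**
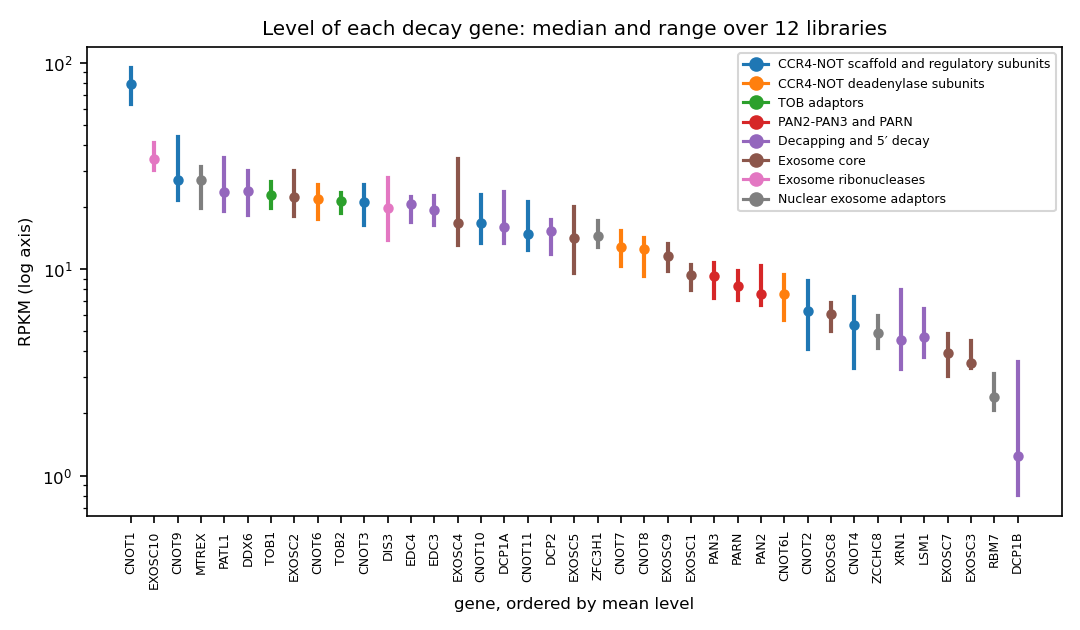
RPKM on a log axis for each of the 39 decay genes, ordered by mean level and coloured by role, with the median (point) and the range (line) over the 12 libraries. CNOT1 has the highest median and DCP1B the lowest and, relative to its level, widest range.

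The roles were spread over this range rather than grouped. Among the deadenylases, CNOT6 (21.9 RPKM), which belongs to the CCR4 type of catalytic subunit, exceeded its paralogue CNOT6L (7.57 RPKM), and the CAF1-type paralogues CNOT7 and CNOT8 were close at 12.8 and 12.1 RPKM. PAN2, PAN3 and PARN lay between 8.18 and 9.04 RPKM. The decapping enzyme DCP2 was at 15 RPKM and the 5′ exonuclease XRN1 at 4.91 RPKM, while the 8 exosome core subunits ran from 3.7 RPKM (EXOSC3) to 22.5 RPKM (EXOSC2).

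In the main fit of all 12 libraries and 7 comparisons, only that of the lines in DMSO+EGF had any of the 39 genes past the adjusted threshold. Under some other settings of the fit, given at the end, CNOT9 also passed between the lines in DMSO and with cordycepin in AMPK KO. CNOT10 and EXOSC5 passed as well between the lines in DMSO in a fit of the recovered reads (voom), where 7.53% of all genes did. In DMSO+EGF, 3 of the 39 genes were higher in AMPK KO than in WT with an adjusted p under 0.05, against 1.74% of the 22067 genes tested: CNOT9, CNOT10 (a CCR4-NOT subunit that forms a module with CNOT11) and DCP1A. An unadjusted p under 0.05 was found for 11 of the 39 genes and for 22.5% of all genes. Of the 11, 10 were higher in AMPK KO (11.1% of all genes) and 1 was lower (11.4%). In all, 28 of the 39 genes had a log2 fold change above 0 (49.5% of all genes), and the libraries of the lines did not overlap for 23 (62.8%). The median log2 fold change of the 39 genes was 0.11, and it was 0.00 over all genes tested. It ranged from 0.01 to 0.21 when 1 of the 4 libraries was left out, and the lowest value, without WT DMSO+EGF replicate 2, equalled that of all genes (0.01). Each fold change is a difference of log2(scaled RPKM + 0.5) estimated with limma, and adjustment was by the Benjamini-Hochberg method over all genes. The median standard error was 0.145 over the 39 genes, which are all protein-coding, and 0.221 over all genes tested. The latter were not limited by gene type, so the shares of all genes given here and below come from an unlike set.

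CNOT9 (ENSG00000144580, GRCh38 chromosome 2, 218568580 to 218597080, plus strand) is the subunit through which several RNA-binding proteins contact CCR4-NOT. In WT its levels in replicates 2 and 3 were 23.4 and 26.6 RPKM in DMSO, 21.7 and 22.8 RPKM in DMSO+EGF, and 23.9 and 25.4 RPKM in cordycepin+EGF. In AMPK KO they were 42.8 and 38.7 RPKM in DMSO, 41.7 and 44 RPKM in DMSO+EGF, and 27.6 and 32.6 RPKM in cordycepin+EGF. Every AMPK KO library was above every WT library, and the AMPK KO libraries with cordycepin were the lowest of their line. CNOT9 was the only one of the 39 genes whose 6 libraries of one line did not overlap the 6 of the other (2.56%), and 2.68% of all genes tested were separated in this way. In DMSO+EGF the means ± SD of 2 libraries were 42.8 ± 1.63 RPKM in AMPK KO and 22.2 ± 0.777 RPKM in WT, which gave a log2 fold change of 0.95 (SE 0.117, limma, adjusted p 0.0148).

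CNOT10 (ENSG00000182973, chromosome 3, 32685145 to 32773875, plus strand) measured 15.3 and 17.0 RPKM in WT DMSO, 13.3 and 15.4 RPKM in WT DMSO+EGF, and 14.0 and 13.9 RPKM in WT cordycepin+EGF. Its AMPK KO values were 21.4 and 22.5 RPKM in DMSO, 22.9 and 22.1 RPKM in DMSO+EGF, and 16.9 and 16.5 RPKM in cordycepin+EGF. Within each treatment the lines were separate, and the AMPK KO libraries without cordycepin stood above all others. In DMSO+EGF the means were 22.5 ± 0.567 and 14.4 ± 1.47 RPKM, a log2 fold change of 0.65 (SE 0.102, limma, adjusted p 0.0283).

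DCP1A (ENSG00000272886, chromosome 3, 53283429 to 53347586, minus strand) encodes an activator of the decapping enzyme. It measured 14.1 and 17.3 RPKM in WT DMSO, 13.4 and 13.9 RPKM in WT DMSO+EGF, and 13.5 and 13.5 RPKM in WT cordycepin+EGF. The AMPK KO values were 23.2 and 19.8 RPKM in DMSO, 21.6 and 23.7 RPKM in DMSO+EGF, and 14.6 and 18.3 RPKM in cordycepin+EGF. As for CNOT10, the lines were separate in each of the 3 treatments, and the cordycepin libraries of AMPK KO lay lower than the other AMPK KO libraries. In DMSO+EGF the means were 22.6 ± 1.54 and 13.6 ± 0.324 RPKM, a log2 fold change of 0.73 (SE 0.145, limma, adjusted p 0.0494).

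**Figure D2:**
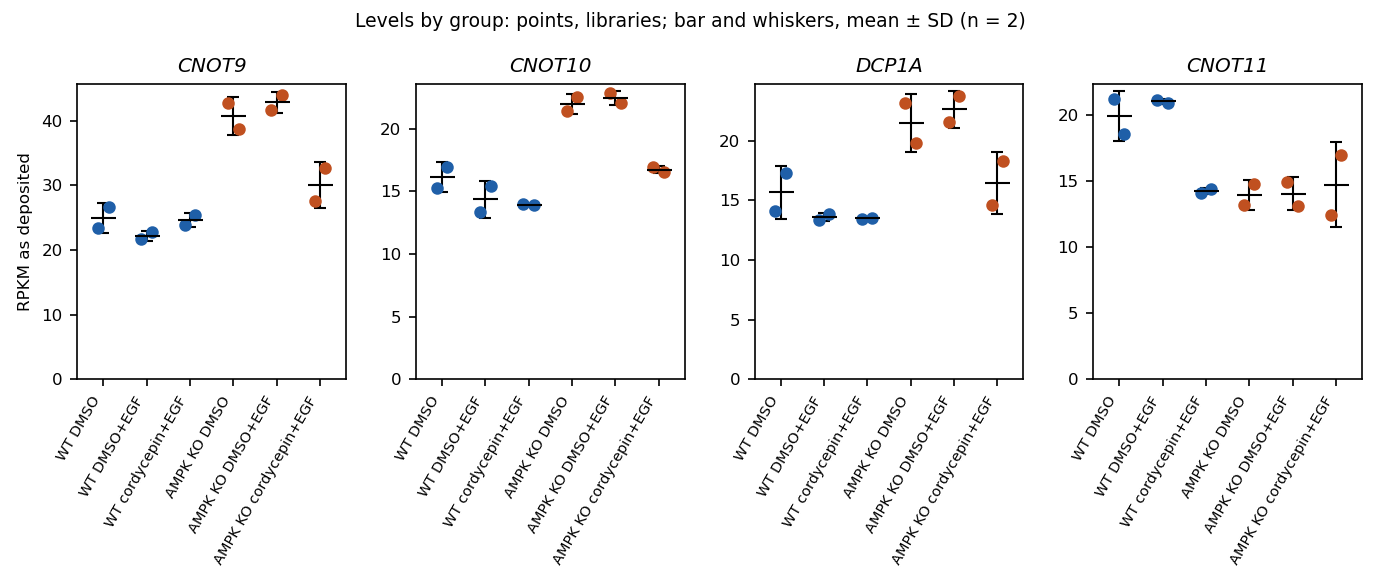
RPKM in each library of the 6 groups (WT blue, AMPK KO orange; left point replicate 2, right point replicate 3) for CNOT9, CNOT10, DCP1A and CNOT11, with the mean as a bar and whiskers of 1 SD (n = 2). CNOT9, CNOT10 and DCP1A are higher in AMPK KO without cordycepin, while CNOT11 is lower there, with 14.0 RPKM against 19.9 RPKM in DMSO.

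These calls rest on few libraries: without any 1 of the 4 libraries compared, none of the 39 genes passed the adjusted threshold, and 6 or 7 had an unadjusted p under 0.05, against 12.1% to 15.5% of all genes in the same fits. The log2 fold changes then stayed between 0.91 and 0.99 for CNOT9, 0.56 and 0.74 for CNOT10, and 0.66 and 0.80 for DCP1A, while the adjusted p ran from 0.117 to 0.209, from 0.117 to 0.248 and from 0.189 to 0.305, respectively.

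The sequences just before the annotated starts of these 3 genes are shown because they are the genes that passed the adjusted threshold. Each is the 200 bases that end next to the outermost GENCODE start, written 5′ to 3′ on the strand of the gene (hg38), and no annotated exon overlaps it. Capitals mark matches to the GC box GGGCGG on either strand.

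CNOT9, chr2:218568380-218568579, plus strand: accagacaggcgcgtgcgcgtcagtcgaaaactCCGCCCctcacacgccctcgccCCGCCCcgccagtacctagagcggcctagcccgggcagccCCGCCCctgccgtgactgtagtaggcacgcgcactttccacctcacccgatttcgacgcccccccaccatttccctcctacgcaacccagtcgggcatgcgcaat

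CNOT10, chr3:32684945-32685144, plus strand: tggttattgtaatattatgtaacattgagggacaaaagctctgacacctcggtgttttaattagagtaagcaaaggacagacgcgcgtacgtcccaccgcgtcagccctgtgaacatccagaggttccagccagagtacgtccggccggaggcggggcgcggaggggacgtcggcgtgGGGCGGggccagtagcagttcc

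DCP1A, chr3:53347587-53347786, minus strand: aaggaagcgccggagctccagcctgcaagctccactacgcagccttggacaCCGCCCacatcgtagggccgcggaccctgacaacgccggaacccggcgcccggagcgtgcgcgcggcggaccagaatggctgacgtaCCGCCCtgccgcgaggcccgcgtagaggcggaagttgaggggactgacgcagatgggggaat

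The CNOT9 stretch held 3 GC boxes, the CNOT10 stretch 1 and the DCP1A stretch 2, and their GC contents were 68%, 57.5% and 69.5%. Among such stretches of all tested genes with a flank (22044), 40.5% held a GC box, and 27 of the 39 decay genes did. The 39 genes are all protein-coding and the tested genes were not limited by type, so these sets are not alike. Whether the motif counts differ was not tested. The CCAAT box (CCAAT, both strands) was found before 13 of the 39 genes and in 27.7% of all stretches. The ETS core CCGGAAG was found before 3 of the 39 genes (7.83% of all), the E-box CACGTG before 3 (5.52%), and the EGR1 site GCGTGGGCG and the CRE TGACGTCA before 0 (0.608% and 1.57%). None of these 5 motifs was present in the 3 stretches printed. A match is a description of letters, not of binding.

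Of the remaining genes of the DMSO+EGF comparison, PATL1, which bridges deadenylation and decapping, came closest to the threshold. PATL1 (ENSG00000166889, chromosome 11, 59636716 to 59669037, minus strand) measured 23.8 and 33.4 RPKM in WT DMSO, 21.5 and 19.2 RPKM in WT DMSO+EGF, and 23.4 and 21.3 RPKM in WT cordycepin+EGF. The AMPK KO values were 29 and 23.5 RPKM in DMSO, 32.0 and 34.7 RPKM in DMSO+EGF, and 21.1 and 24.3 RPKM in cordycepin+EGF. The lines were separate only in DMSO+EGF, with a log2 fold change of 0.72 (SE 0.175, limma, adjusted p 0.0674).

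CNOT11, which binds CNOT10 within the complex, was the only gene lower in AMPK KO among the 11 with an unadjusted p under 0.05. CNOT11 (ENSG00000158435, chromosome 2, 101252886 to 101270316, plus strand) measured 21.3 and 18.6 RPKM in WT DMSO, 21.2 and 20.9 RPKM in WT DMSO+EGF, and 14.1 and 14.4 RPKM in WT cordycepin+EGF. The AMPK KO values were 13.2 and 14.8 RPKM in DMSO, 15.0 and 13.2 RPKM in DMSO+EGF, and 12.5 and 17.0 RPKM in cordycepin+EGF. The log2 fold change between the lines in DMSO+EGF was -0.55 (SE 0.148, limma, adjusted p 0.0849). The exons of CNOT9, CNOT11 and DCP1A share no base with another listed gene, and those of CNOT10 share 2.31%.

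CNOT1, the scaffold (ENSG00000125107, chromosome 16, 58519951 to 58629885, minus strand), measured 80.4 and 87.2 RPKM in WT DMSO, 69.2 and 75.8 RPKM in WT DMSO+EGF, and 67.3 and 70.9 RPKM in WT cordycepin+EGF. Its values in AMPK KO were 91.9 and 80.2 RPKM in DMSO, 94.2 and 94.0 RPKM in DMSO+EGF, and 63.1 and 78.3 RPKM in cordycepin+EGF. The lines overlapped in DMSO and in cordycepin+EGF and were separate in DMSO+EGF, where the log2 fold change was 0.39 (SE 0.132, limma, adjusted p 0.13). Of its exon bases, 12.5% are shared with SETD6 on the opposite strand, and whether the counting used strand is not given in the sources used here.

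DIS3, the main ribonuclease of the exosome, measured 15.1 and 22.9 RPKM in WT DMSO, 13.8 and 18.7 RPKM in WT DMSO+EGF, and 16.5 and 21.1 RPKM in WT cordycepin+EGF. The AMPK KO libraries gave 23.4 and 27.6 RPKM in DMSO, 25.5 and 24.9 RPKM in DMSO+EGF, and 16.8 and 16.8 RPKM in cordycepin+EGF. The lines were separate in DMSO and in DMSO+EGF, where the log2 fold change was 0.65 (SE 0.205, limma, adjusted p 0.115).

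EXOSC10, the other exosome ribonuclease, measured 35.1 and 40.9 RPKM in WT DMSO, 31.5 and 32.6 RPKM in WT DMSO+EGF, and 30.9 and 33.1 RPKM in WT cordycepin+EGF. Its AMPK KO values were 39.5 and 32.9 RPKM in DMSO, 40.0 and 40.0 RPKM in DMSO+EGF, and 30.3 and 36.2 RPKM in cordycepin+EGF. Its log2 fold change between the lines in DMSO+EGF was 0.34 (SE 0.132, limma, adjusted p 0.177). EXOSC10 has the largest exon share on the opposite strand of another listed gene among the 39 genes, 39.1%.

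By role, the scaffold and regulatory subunits held 5 of the 11 genes at an unadjusted p under 0.05 in DMSO+EGF (CNOT1, CNOT3, CNOT9 and CNOT10 higher, CNOT11 lower). The others were both exosome ribonucleases, DCP1A, PATL1, PARN and ZFC3H1, a nuclear exosome adaptor. None of the 4 deadenylase subunits, the 2 TOB adaptors or the 8 exosome core subunits was among them.

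In DMSO alone, 0 of the 39 genes passed the adjusted threshold between the lines (limma), where 0.44% of all genes did, and 11 had an unadjusted p under 0.05, against 21.3% of all genes. Of these, 7 were higher in AMPK KO (12% of all genes) and 4 lower (9.29%). CNOT9 was nearest the threshold with a log2 fold change of 0.67 (SE 0.117, limma, adjusted p 0.0511), followed by CNOT10 with 0.42 (SE 0.102, limma, adjusted p 0.0892) and CNOT11 with -0.52 (SE 0.148, limma, adjusted p 0.119). The median over the 39 genes was 0.00, with 20 of them above 0 (51% of all genes) and no overlap of the libraries for 21 (48.5%). Without WT DMSO replicate 3, the shallow library, 6 genes passed (13.9% of all genes did): CNOT9, CNOT10, EXOSC5, which is a core subunit of the exosome, and DIS3 were higher in AMPK KO, and DCP1B and XRN1 were lower. The count at an unadjusted p under 0.05 was 14 without that library (32.3% of all genes), 5 without WT DMSO replicate 2 (16.5%) and 4 without AMPK KO DMSO replicate 3 (10.5%). The median of the 39 genes ran from -0.06, without AMPK KO DMSO replicate 2, to 0.05, without AMPK KO DMSO replicate 3.

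With cordycepin and EGF, 0 of the 39 genes passed (0.118% of all genes, limma). At an unadjusted p under 0.05 there were 3 (13.7% of all genes), all higher in AMPK KO (7.1% of all genes were higher at that p and 6.64% lower). A log2 fold change above 0 was found for 26 of the 39 genes (51.6% of all genes), and the libraries did not overlap for 17 (45.6%). The 3 genes with an unadjusted p under 0.05 were EXOSC1, an exosome core subunit, CNOT10 and CNOT9. Their log2 fold changes were 0.31 (SE 0.106, limma, adjusted p 0.284), 0.28 (SE 0.102, limma, adjusted p 0.305) and 0.30 (SE 0.117, limma, adjusted p 0.322), respectively. Across the 3 treatments, which used different libraries, the log2 fold change of CNOT9 between the lines was thus 0.67, 0.95 and 0.30. In cordycepin+EGF the count of 3 genes became 7 when WT replicate 2 was left out (15.2% of all genes), of which 2 were higher and 5 lower in AMPK KO. It became 0 without WT replicate 3 (6.19%) and 1 without AMPK KO replicate 3 (11.7%). The direction over the 39 genes turned without AMPK KO replicate 3, with 14 above and 25 below 0 and a median of -0.05 in place of 0.05, and the median was 0.13 without AMPK KO replicate 2.

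**Figure D3:**
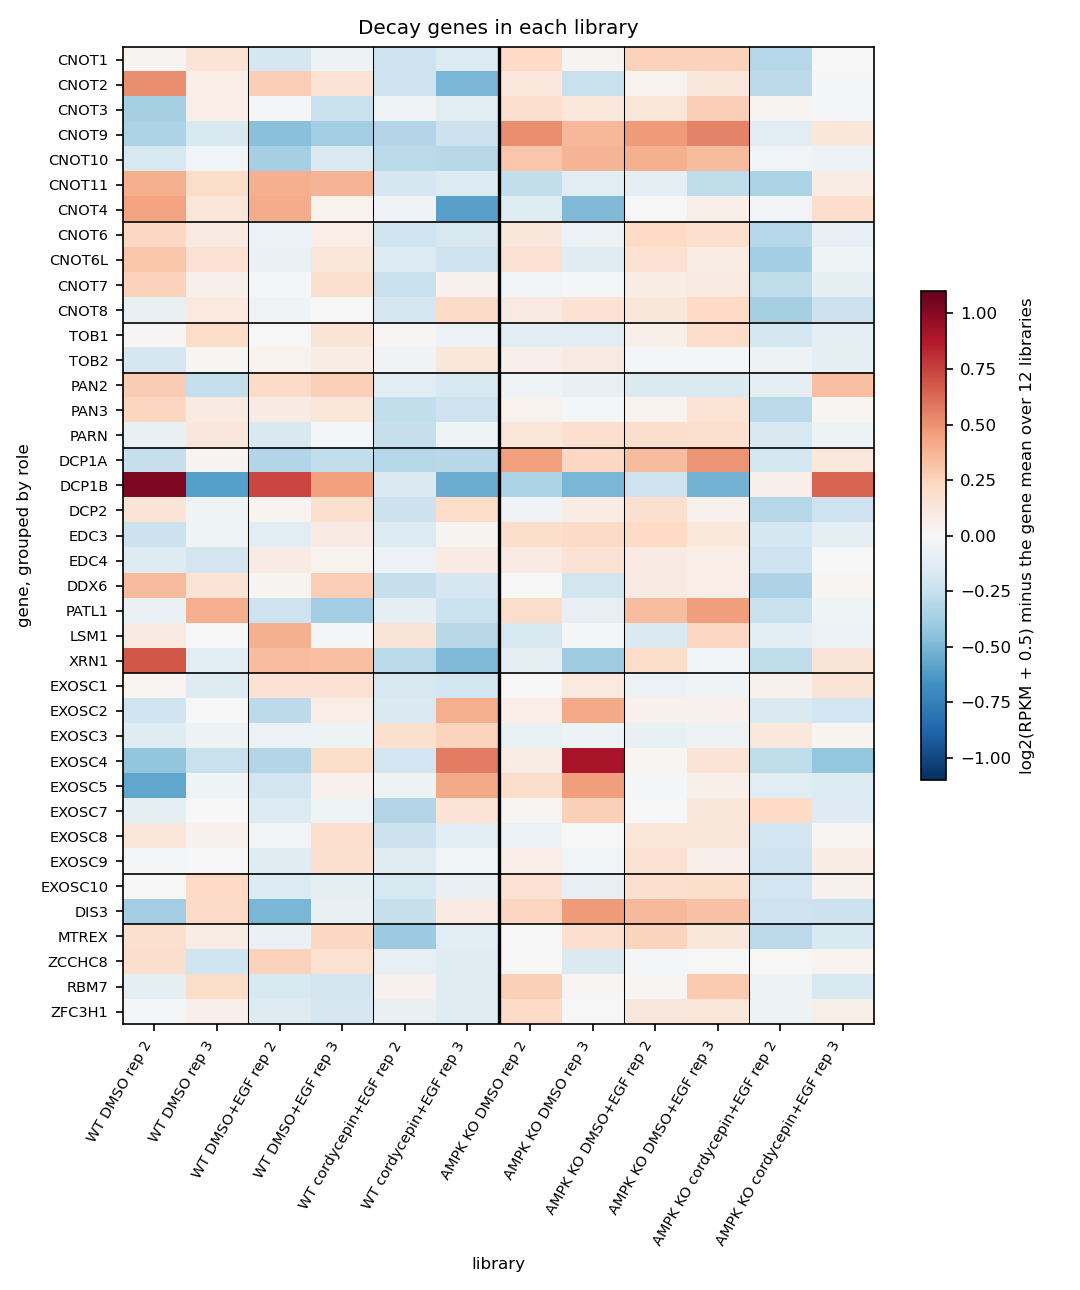
log2(RPKM + 0.5) of each decay gene (rows, grouped by role) in each library (columns) minus the mean of that gene over the 12 libraries. The CNOT9, CNOT10 and DCP1A rows are high in the 4 AMPK KO libraries without cordycepin, and most rows are low in AMPK KO cordycepin+EGF replicate 2.

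EGF alone left the decay genes without a call in either line. In WT, 0 of 39 passed the adjusted threshold (0.0227% of all genes, limma), and 1, PATL1, had an unadjusted p under 0.05, against 9.72% of all genes (6.18% higher and 3.53% lower). Its log2 fold change was -0.49 (SE 0.175, limma, adjusted p 0.494), and it ran from -0.73, without WT DMSO replicate 2, to -0.26, without replicate 3. The SD of its WT DMSO values was 6.73 RPKM. In AMPK KO, 0 of 39 passed (0.0136% of all genes, limma) and 1, TOB1, had an unadjusted p under 0.05, against 2.42% of all genes (1.03% higher and 1.4% lower). The median log2 fold changes of the 39 genes were -0.06 in WT and 0.07 in AMPK KO, and 14 genes in WT and 30 in AMPK KO had a value above 0, against 52.3% and 51.4% of all genes. With 1 library left out, the median ran from -0.10 to -0.02 in WT, the extremes being without WT DMSO+EGF replicates 3 and 2, and from 0.03 to 0.13 in AMPK KO, the extremes being without AMPK KO DMSO replicates 3 and 2. Without AMPK KO DMSO replicate 3, 22 of the 39 genes were above 0. The libraries did not overlap for 12 genes in WT (36.5% of all genes) and 17 in AMPK KO (38.5%). All 7 scaffold and regulatory subunits and all 4 deadenylase subunits had values above 0 in AMPK KO, and 6 of the 7 and all 4 had values below 0 in WT. None of these subunits had an unadjusted p under 0.05 in either line (limma). The 2 exosome ribonucleases were likewise below 0 in WT and above 0 in AMPK KO. Of the 4 nuclear exosome adaptors, 3 were below 0 in WT and all 4 above 0 in AMPK KO. Among the 9 decapping and 5′ decay factors, 6 were above 0 in WT and 7 in AMPK KO. Of the 8 exosome core subunits, 4 were below 0 in WT and 5 in AMPK KO. Of PAN2, PAN3 and PARN, 2 were below 0 in WT and 2 above 0 in AMPK KO. In each line 1 of the 2 TOB adaptors was above 0.

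TOB1 and its paralogue TOB2 link the CAF1-type deadenylases to poly(A)-binding protein. TOB1 measured 23.1 and 26.4 RPKM in WT DMSO, 22.8 and 25.3 RPKM in WT DMSO+EGF, and 23.0 and 21.8 RPKM in WT cordycepin+EGF. Levels in AMPK KO were 21.0 and 20.9 RPKM in DMSO, 23.7 and 26.3 RPKM in DMSO+EGF, and 19.9 and 21.2 RPKM in cordycepin+EGF. Only in AMPK KO were its EGF libraries above its DMSO libraries, with a log2 fold change of 0.26 (SE 0.109, limma, adjusted p 1.0), and the antisense gene TOB1-AS1 shares 11.1% of its exon bases.

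TOB2 stayed within a narrow range. It measured 18.7 and 21.6 RPKM in WT DMSO, 22.0 and 22.7 RPKM in WT DMSO+EGF, and 20.9 and 23.5 RPKM in WT cordycepin+EGF. Its AMPK KO levels were 22.3 and 23.0 RPKM in DMSO, 21.2 and 21.1 RPKM in DMSO+EGF, and 20.6 and 20.0 RPKM in cordycepin+EGF. None of its 7 comparisons reached an unadjusted p under 0.05.

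The EGF effects of the lines were compared directly with an interaction term. No gene of the 22067 passed the adjusted threshold (0%, limma), and 2 of the 39 had an unadjusted p under 0.05, both more positive in AMPK KO, against 8.69% of all genes (3.3% more positive and 5.38% more negative). PATL1 differed by 0.85 on the log2 scale (SE 0.248, limma, unadjusted p 0.00762, adjusted p 0.569) and EXOSC10 by 0.43 (SE 0.186, limma, unadjusted p 0.0474, adjusted p 0.57).

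Cordycepin was compared with its solvent in cells that all received EGF. In AMPK KO, 31 of the 39 genes were lower with cordycepin, and in all genes tested 55.1% were higher. Of 53 further decay genes outside the list, described below, 41 were lower as well. The median log2 fold change was -0.19 over the 39 genes and 0.06 over all genes. No decay gene passed the adjusted threshold (0.471% of all genes did, limma), and 11 had an unadjusted p under 0.05, all lower, against 21.8% of all genes (11.7% higher and 10.1% lower). The libraries did not overlap for 33 of the 39 genes, which was the case for 59.2% of all genes. Under RPKM as deposited and under median-ratio scaling the count of lower genes was 32.

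The 11 genes were CNOT1, CNOT9, CNOT10, CNOT6, CNOT8, DCP1A, DCP2, EDC3, PATL1, DIS3 and MTREX. The smallest p-values belonged to CNOT9 with a log2 fold change of -0.46 (SE 0.117, limma, adjusted p 0.0867), CNOT10 with -0.37 (SE 0.102, limma, adjusted p 0.102) and the deadenylase CNOT8 with -0.43 (SE 0.136, limma, adjusted p 0.13). All 4 deadenylase subunits and both exosome ribonucleases were among the 31 lower genes, as were 8 of 9 decapping and 5′ decay factors and 5 of 8 exosome core subunits. The AMPK KO DMSO+EGF libraries served as the reference here and as one side of the comparison of the lines in DMSO+EGF, so the values of CNOT9, CNOT10 and DCP1A in those 2 comparisons are not independent.

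The size of this difference depended on the cordycepin library used. Without AMPK KO cordycepin+EGF replicate 2 the median over the 39 genes was -0.13, with 3 genes at an unadjusted p under 0.05 (13.1% of all genes), and without replicate 3 it was -0.30, with 11 (21.1%). That count was 5 without AMPK KO DMSO+EGF replicate 2 (12.4%) and 4 without its replicate 3 (12.7%). Between 30 and 32 of the 39 genes were lower when any 1 of the 4 libraries compared was left out. The median of the 39 genes, relative to the mean of each gene over the 12 libraries, was -0.15 in replicate 2 and 0.01 in replicate 3 of this group, and 0.08 and 0.12 in the AMPK KO DMSO+EGF replicates.

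CNOT8 showed the separation in AMPK KO alone. It measured 11.3 and 13 RPKM in WT DMSO, 11.7 and 12.1 RPKM in WT DMSO+EGF, and 10.5 and 14.0 RPKM in WT cordycepin+EGF. In AMPK KO it measured 12.9 and 13.5 RPKM in DMSO, 13.1 and 14.1 RPKM in DMSO+EGF, and 9.23 and 10.1 RPKM in cordycepin+EGF.

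CNOT7 measured 15.3 and 13.2 RPKM in WT DMSO, 12.5 and 14.4 RPKM in WT DMSO+EGF, and 10.7 and 13.2 RPKM in WT cordycepin+EGF. The AMPK KO values were 12.4 and 12.5 RPKM in DMSO, 13.5 and 13.6 RPKM in DMSO+EGF, and 10.4 and 11.8 RPKM in cordycepin+EGF. Its cordycepin libraries lay below the DMSO+EGF libraries in AMPK KO and overlapped them in WT, and the log2 fold change in AMPK KO was -0.24 (SE 0.131, limma, adjusted p 0.326).

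CNOT6 measured 25.6 and 23.3 RPKM in WT DMSO, 20.8 and 23.0 RPKM in WT DMSO+EGF, and 18.7 and 19.2 RPKM in WT cordycepin+EGF. Its values in AMPK KO were 23.7 and 20.8 RPKM in DMSO, 25.5 and 24.8 RPKM in DMSO+EGF, and 17.4 and 20.4 RPKM in cordycepin+EGF. The cordycepin libraries were the lowest in both lines, with log2 fold changes of -0.16 in WT (limma, adjusted p 0.511) and -0.36 in AMPK KO (limma, adjusted p 0.135).

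CNOT6L measured 9.37 and 8.47 RPKM in WT DMSO, 7.08 and 8.25 RPKM in WT DMSO+EGF, and 6.69 and 6.32 RPKM in WT cordycepin+EGF. The AMPK KO libraries gave 8.50 and 6.78 RPKM in DMSO, 8.47 and 7.98 RPKM in DMSO+EGF, and 5.69 and 7.25 RPKM in cordycepin+EGF. Its log2 fold changes with cordycepin were -0.18 in WT (limma, adjusted p 0.588) and -0.29 in AMPK KO (limma, adjusted p 0.319), again without overlap of the libraries in either line.

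PAN2, the catalytic subunit of PAN2-PAN3, had the opposite sign in the lines. It measured 9.92 and 6.69 RPKM in WT DMSO, 9.45 and 9.82 RPKM in WT DMSO+EGF, and 7.43 and 7.13 RPKM in WT cordycepin+EGF. Levels in AMPK KO were 7.81 and 7.63 RPKM in DMSO, 7.21 and 7.22 RPKM in DMSO+EGF, and 7.53 and 10.3 RPKM in cordycepin+EGF. The log2 fold changes with cordycepin were -0.34 in WT (limma, adjusted p 0.394) and 0.32 in AMPK KO (limma, adjusted p 0.356), and 1 AMPK KO library gave most of the latter. CNPY2-AS1 on the opposite strand shares 19.5% of its exon bases.

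PARN, a deadenylase that acts mainly on noncoding RNAs, measured 8.07 and 9.37 RPKM in WT DMSO, 7.56 and 8.41 RPKM in WT DMSO+EGF, and 7.10 and 8.23 RPKM in WT cordycepin+EGF. Its AMPK KO levels were 9.44 and 9.76 RPKM in DMSO, 9.83 and 9.69 RPKM in DMSO+EGF, and 7.49 and 8.20 RPKM in cordycepin+EGF. The AMPK KO libraries without cordycepin were the highest of the 12. Its log2 fold change with cordycepin in AMPK KO was -0.25 (SE 0.119, limma, adjusted p 0.252).

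**Figure D4:**
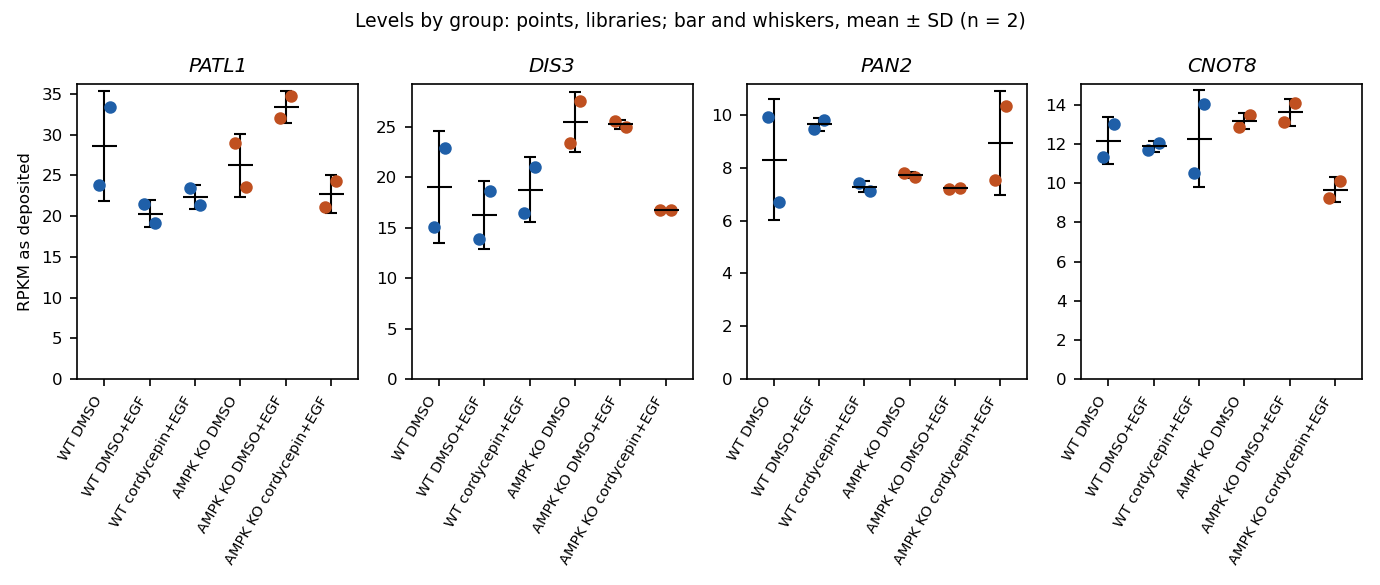
RPKM in each library of the 6 groups (WT blue, AMPK KO orange; left point replicate 2, right point replicate 3) for PATL1, DIS3, PAN2 and CNOT8, with the mean as a bar and whiskers of 1 SD (n = 2). DIS3 and CNOT8 are lower in AMPK KO with cordycepin than in AMPK KO DMSO+EGF, with 16.8 against 25.2 RPKM for DIS3 and 9.67 against 13.6 RPKM for CNOT8.

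DCP2, the decapping enzyme, measured 16.5 and 14.5 RPKM in WT DMSO, 15.2 and 16.9 RPKM in WT DMSO+EGF, and 12.6 and 17.3 RPKM in WT cordycepin+EGF. In AMPK KO it measured 14.5 and 15.9 RPKM in DMSO, 16.9 and 15.5 RPKM in DMSO+EGF, and 11.9 and 12.7 RPKM in cordycepin+EGF. The log2 fold change with cordycepin was -0.34 in AMPK KO (SE 0.145, limma, adjusted p 0.22) and -0.07 in WT, where the libraries overlapped.

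MTREX measured 29.6 and 27.7 RPKM in WT DMSO, 24.9 and 30.8 RPKM in WT DMSO+EGF, and 19.8 and 24.1 RPKM in WT cordycepin+EGF. The AMPK KO values were 26.2 and 29.8 RPKM in DMSO, 31.2 and 28.7 RPKM in DMSO+EGF, and 21.3 and 23.3 RPKM in cordycepin+EGF. Its cordycepin libraries were the lowest of each line, with log2 fold changes of -0.29 in WT (SE 0.134, limma, adjusted p 0.323) and -0.37 in AMPK KO (limma, adjusted p 0.165).

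In WT, 23 of the 39 genes were lower with cordycepin, where 53.5% of all genes were higher, and 27 and 26 were lower under RPKM as deposited and under median-ratio scaling. The median was -0.02 over the 39 genes and 0.03 over all genes. Its sign depended on single libraries: it was 0.01 without WT DMSO+EGF replicate 3 and 0.00 without WT cordycepin+EGF replicate 2, each with 20 genes higher and 19 lower, and it was -0.09 and -0.10 without the other replicate of each group. No decay gene passed the adjusted threshold (0.00453% of all genes did, limma), and 6 had an unadjusted p under 0.05, against 16% of all genes (8.86% higher and 7.13% lower). Of the 6, EXOSC3, a core subunit that caps the exosome ring, was higher, and CNOT11, CNOT2, PAN3, XRN1 and EXOSC1 were lower. The libraries did not overlap for 18 of the 39 genes (53.5% of all genes). CNOT11 had a log2 fold change of -0.50 (SE 0.148, limma, adjusted p 0.267). The count of 6 was 3 and 2 without WT DMSO+EGF replicates 2 and 3, respectively (8.44% and 8.17% of all genes), and 2 without WT cordycepin+EGF replicate 3 (8.2%).

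EXOSC1 measured 9.46 and 8.40 RPKM in WT DMSO, 10.4 and 10.5 RPKM in WT DMSO+EGF, and 8.18 and 7.96 RPKM in WT cordycepin+EGF. Its values in AMPK KO were 9.34 and 10.0 RPKM in DMSO, 8.87 and 9.07 RPKM in DMSO+EGF, and 9.62 and 10.3 RPKM in cordycepin+EGF. With cordycepin its values were lower in WT and higher in AMPK KO, without overlap in either line, and the log2 fold changes were -0.31 (SE 0.106, limma, adjusted p 0.27) and 0.19 (SE 0.106, limma, adjusted p 0.325).

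CNOT2, a regulatory subunit that pairs with CNOT3, measured 8.79 and 6.34 RPKM in WT DMSO, 7.37 and 6.74 RPKM in WT DMSO+EGF, and 5.08 and 4.11 RPKM in WT cordycepin+EGF. The AMPK KO libraries gave 6.58 and 4.99 RPKM in DMSO, 6.19 and 6.59 RPKM in DMSO+EGF, and 4.83 and 5.92 RPKM in cordycepin+EGF. The WT log2 fold change with cordycepin was -0.53 (SE 0.203, limma, adjusted p 0.282).

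XRN1 measured 7.95 and 4.33 RPKM in WT DMSO, 6.15 and 6.11 RPKM in WT DMSO+EGF, and 3.79 and 3.27 RPKM in WT cordycepin+EGF. Levels in AMPK KO were 4.41 and 3.53 RPKM in DMSO, 5.58 and 4.67 RPKM in DMSO+EGF, and 3.85 and 5.33 RPKM in cordycepin+EGF. Its WT cordycepin libraries were below all other WT libraries, with a log2 fold change of -0.68 (SE 0.264, limma, adjusted p 0.284), and its WT DMSO replicates were the farthest apart of its 6 pairs.

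The cordycepin effects of the lines were also compared directly. No gene of the 22067 passed (0%, limma), and 9 of the 39 had an unadjusted p under 0.05, against 21.4% of all genes (10.9% more positive and 10.5% more negative). In AMPK KO relative to WT, the effect was more negative for CNOT9 (-0.65, SE 0.165, limma, unadjusted p 0.00356, adjusted p 0.123), CNOT10, CNOT8, PATL1 and DIS3. It was more positive for EXOSC1 (0.50, SE 0.15, limma, adjusted p 0.137), CNOT11 (0.60, SE 0.21, limma, adjusted p 0.163), PAN2 and DCP1B.

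**Figure D5:**
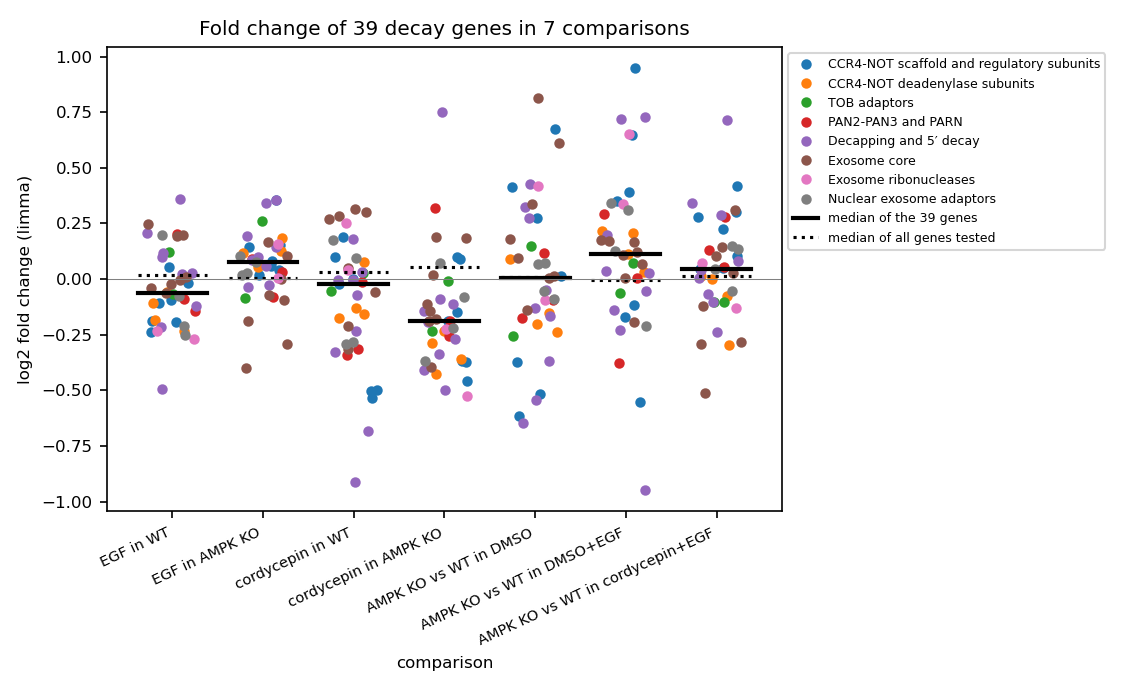
log2 fold change (limma) of each of the 39 decay genes, coloured by role, in the 7 comparisons, with the median of the 39 genes (solid bar) and of all 22067 genes tested (dotted bar). The medians differ most for cordycepin in AMPK KO, at -0.19 and 0.06.

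The medians of the roles in that comparison were -0.37 for the exosome ribonucleases, -0.32 for the deadenylase subunits, -0.19 for the CCR4-NOT scaffold and regulatory subunits, for the decapping factors and for PAN2, PAN3 and PARN, -0.15 for the nuclear exosome adaptors, -0.13 for the exosome core and -0.12 for the TOB adaptors. In WT the corresponding medians ran from -0.31 (PAN2, PAN3 and PARN) to 0.16 (exosome core). Within the exosome core, EXOSC4 and EXOSC5 varied more than their partners: EXOSC4 measured 19.0 and 34.1 RPKM in the AMPK KO DMSO replicates, and its fit had a standard error of 0.302.

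A further 53 genes of mRNA decay outside this list (the other members of the LSM ring, further deadenylases and decapping enzymes, exosome cofactors, nonsense-mediated decay factors and recruiters of deadenylases) were counted in the same fits. With cordycepin in AMPK KO, 41 of the 53 were lower, with a median of -0.20, while 55.1% of all genes were higher. An unadjusted p under 0.05 was found for 19 of the 53 (21.8% of all genes), 17 of them lower (10.1%). Of these, NOCT, a deadenylase-related enzyme with a circadian rhythm, passed the adjusted threshold. NOCT measured 15.8 and 15.7 RPKM in AMPK KO DMSO+EGF and 8.97 and 9.95 RPKM in AMPK KO cordycepin+EGF, a log2 fold change of -0.66 (SE 0.102, limma, adjusted p 0.0389). Without any 1 of these 4 libraries the adjusted p was 0.0666 to 0.293.

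Between the lines in DMSO+EGF, 2 of the 53 passed (1.74% of all genes). HBS1L, a factor that rescues stalled ribosomes with PELO, measured 21.0 and 20.6 RPKM in AMPK KO and 10.7 and 12 RPKM in WT, a log2 fold change of 0.86 (SE 0.105, limma, adjusted p 0.0146). ANGEL1, a relative of the CCR4-type deadenylases, measured 4.17 and 4.07 RPKM in AMPK KO and 7.95 and 8.20 RPKM in WT, a log2 fold change of -0.88 (SE 0.147, limma, adjusted p 0.0322). Neither passed without any 1 of the 4 libraries, with adjusted p of 0.108 to 0.209 for HBS1L and 0.171 to 0.255 for ANGEL1. The adjusted threshold was passed by 0 of the 53 in the remaining 5 comparisons (limma), where 2, 1, 7, 13 and 9 genes had an unadjusted p under 0.05 for EGF in WT, EGF in AMPK KO, cordycepin in WT, and the lines in DMSO and in cordycepin+EGF. The shares of all genes were 9.72%, 2.42%, 16%, 21.3% and 13.7% in the same order. The smallest of these p-values belonged to ZCCHC7 for EGF in both lines (log2 fold changes of -0.36 in WT and 0.34 in AMPK KO), PELO for cordycepin in WT (0.64), HBS1L for the lines in DMSO (0.57) and NOCT for the lines in cordycepin+EGF (-0.48).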

How the data were processed

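RNA of HEK293 cells was sequenced as stranded, ribosomal RNA-depleted libraries with paired reads of 150 bases. The authors mapped reads to GRCh38.p13, counted them with Rsubread and deposited RPKM values. The annotation release and the use of strand in counting are not given in the sources used here. FastQC is named in the submitters' processing notes. The sample labels gave the groups and the replicate numbers. Of the deposited rows, 2 named no gene (an empty row and the 75% percentile) and were left out. Symbols came from GENCODE release 44, which matched 26029 of 26058 genes.

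The deposited RPKM values were divided by the upper quartile of each library, as in the study, and analysed as log2(scaled RPKM + 0.5) for the 22067 genes with a mean of at least 0.5 RPKM, so fold changes understate changes of low genes. Levels are printed as deposited. Tests used limma 3.58.1 with R 4.3.3 (trend, two-sided, group means, all 12 libraries), with 6 residual degrees of freedom, 8.96 after moderation, and p-values were adjusted by the Benjamini-Hochberg method separately for 7 comparisons and 2 interactions. Scripts were tested on simulated data. Of the matched genes, 25082 (96.4%) gave whole reads, within 0.05 of a read, in every library. An alternative was limma's voom on the recovered reads of all matched genes tested, which were fractional where not whole, as for CNOT4 and ZCCHC8. Reads without molecular identifiers give counting error only.

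The members, lists and tests were chosen with earlier results of these data known. Genes given in every library were 14 enzymes, scaffolds and adaptors chosen by role, genes with an adjusted p under 0.05, and up to 3 genes per comparison with the smallest unadjusted p under 0.05 and no overlap between libraries. Other genes were named by count or chosen after their values were seen, as DCP1B, EXOSC4 and EXOSC5 were. Alternatives were pseudocounts of 0.1 and 1, no filter, the deposited RPKM without upper-quartile scaling, scaling by median ratios, fits restricted to the groups compared, replicate blocks, voom and leaving out each library. Array weights were added after seeing the data. They were the same for both libraries of each group, so they weighted groups and not single libraries. They were largest in AMPK KO DMSO+EGF (2.02) and WT DMSO+EGF (1.47) and smallest in WT DMSO (0.365). The markers ALB, COL1A2 and PECAM1 were not analysed here.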

Additional observations from a re-analysis of the deposited data

How the results depend on the processing

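With 2 libraries a group, leaving out 1 library removed every call between the lines in DMSO+EGF (0 to 0 genes against 3), where the remaining library of a group was assumed to vary like the other groups. Leave-one-out ranges of the count of decay genes with an adjusted p under 0.05 were 0 to 6 for the lines in DMSO. For an unadjusted p under 0.05 they were 4 to 14 for the lines in DMSO, 6 to 7 in DMSO+EGF, 0 to 7 in cordycepin+EGF, 0 to 7 for EGF in WT, 0 to 2 for EGF in AMPK KO, 2 to 7 for cordycepin in WT, 3 to 11 for cordycepin in AMPK KO, 1 to 6 for the EGF interaction and 2 to 10 for the cordycepin interaction. WT DMSO replicate 3 limits depth. Each gene named by rule for a comparison kept its direction there in 14 of 14 alternatives, interactions aside.

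Adjusted counts under other settings, with the share of all genes called in the same fit: for the lines in DMSO, 1 with a pseudocount of 0.1 (0.643%), 1 without a filter (0.721%) and 1 with RPKM as deposited (0.625%), CNOT9 in each, and 3 with voom (CNOT9, CNOT10 and EXOSC5, 7.53%). For the lines in DMSO+EGF, 5 in a fit of only the groups compared (10%), 6 with voom (11%) and 13 with array weights (22.8%). DCP1A was not among the 2 genes called with a pseudocount of 0.1, RPKM as deposited or median-ratio scaling. For cordycepin in AMPK KO, 1 with voom (5.82%) and 1 with array weights (5.41%), CNOT9 in both. For the cordycepin interaction, 2 with voom (CNOT9 and DCP1B, 9.13%) and 2 with array weights (CNOT9 and EXOSC1, 6.6%).

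Unadjusted counts: for EGF in AMPK KO, 0 with RPKM as deposited (2.46% of all genes), 0 with median-ratio scaling (2.43%), 3 with only the groups compared (5.7%) and 2 with array weights (6.98%). With only the groups compared they were 0 for EGF in WT (4.79%), 6 for the lines in DMSO (10.9%) and 0 in cordycepin+EGF (11.7%). For the EGF interaction they were 1 with RPKM as deposited, median-ratio scaling, only the groups compared and array weights (7.59% to 8.63%). With array weights they were 5 for the lines in DMSO (12.9%) and 17 in DMSO+EGF (36.8%). For cordycepin in WT they were 12 with voom (24.1%) and 11 with array weights (23.4%). The causes were not tested.

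No source says that a replicate number marks a shared culture or day. Across genes, the replicate 3 minus replicate 2 differences of 2 groups had r of 0.136, 0.282 and 0.314 within WT. Within AMPK KO r was -0.122, -0.0677 and 0.0307. Between groups of different lines it ran from -0.0809 to 0.322, and it was -0.0538 between the lines in DMSO+EGF. The main fit did not treat the numbers as pairs, and replicate blocks were fitted as alternatives. With a replicate block inside each line, 1 decay gene passed between the lines in DMSO+EGF (CNOT9, limma, adjusted p 0.0473). Calls over all genes were fewer too, with 0.589% in that fit against 1.74% in the main fit. With a block across all groups 2 decay genes passed (CNOT9 and CNOT10). With the block inside each line, the adjusted p of NOCT (cordycepin in AMPK KO) was 0.0569, and that of PRKAA1 between the lines in DMSO 0.0654. The replicate block moved no other count of decay genes by over 1.5 times.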
